A study of Mus musculus with 9 samples.

Results

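Gene expression was compared between 3 libraries labelled NPC and 3 labelled NC, selected by the codes in their titles from a series of 9. All 6 were made from poly(A) RNA of c-Kit+ mouse bone marrow cells obtained by sorting, and were sequenced as read pairs. The study set controls beside CMML (chronic myelomonocytic leukaemia) mice and beside CMML mice in which Piezo1 was conditionally deleted. The remaining 3 libraries carry the label WT. The codes are not spelled out. If NC stands for CMML, and NPC for CMML plus the Piezo1 deletion, as their letters allow, the comparison asks what the loss of Piezo1 adds to a disease state that both groups share. The sources used here do not give strain, age, sex, treatment, the alleles behind the disease, the driver of the deletion or any pooling of animals. They also do not say whether each library is a separate animal, so the p-values describe library-to-library spread that may be technical.

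Piezo1 is a cation channel of the plasma membrane that opens when the membrane is stretched and lets calcium in, and in blood it is best known for controlling the water content of red cells. c-Kit is the receptor for stem cell factor, and c-Kit+ marrow cells include stem cells and progenitors. CMML is a disease of such cells in which monocytes accumulate. Of a cell's many responses to mechanical force, integrin adhesion, caveolae and the links from the cell surface to the nucleus are among the most studied.

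The table analysed here held 99 genes, and 61 of them had at least 1 FPKM in 3 or more of the 6 libraries and were tested. Most mouse genes are thus outside the data used here, and gene counts apply to the tested genes alone. FPKM counts the fragments of a gene relative to its transcript length and to the mapped total of the library. Kit, Cd34 and Piezo1 were not analysed here, so neither the sorted cell type nor the knockout could be checked. The ratio of deposited count to FPKM gave implied depths of 79720189 to 88424053 counts per library in NC and NPC, and about 4 counts stood for 1 fragment. Pearson correlations of log2(FPKM + 1) over the 61 genes, which are not independent replicates, were 0.9977 to 0.9988 within groups and 0.9953 to 0.9988 between them. Variation was larger among the NPC libraries: the median coefficient of variation was 5.29% in NPC and 3.07% in NC, and it was the larger in NPC for 45 genes. NPC replicate 2 was the lowest of the 6 libraries for 26 of the 61 genes. TMM normalisation, computed on the 61 tested genes alone, gave it a factor of 0.952. The other libraries of both groups lay between 0.991 and 1.01. NC replicate 2 was the lowest for 18 genes. In a chi-square test of counts divided by 4, which sets libraries against counting error alone, NC replicates 2 and 3 gave no detectable difference (chi-square over degrees of freedom 1.18, p = 0.166). The same chi-square ratio was 1.36 for NC replicates 1 and 3 (chi-square p = 0.033) and 2.24 for NC replicates 1 and 2 (chi-square p = 1.233e-07). For the pairs of NPC replicates it was 2.55 to 3.26. All were kept as separate libraries because the count scale is inferred, and the average of NC replicates 2 and 3 was also tried in their place.

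Mx1, Hk2, Mnt and Gm2a were higher in NPC than in NC, and Narf, Itga5, Krit1 and Cav2 were lower. The differences were small: 1.09-fold to 1.19-fold for the genes that rose, 0.880 to 0.901 times for Narf, Itga5 and Krit1, and 0.716 times for Cav2. These were 8 of 61 tested genes (13.1%), 4 in each direction (6.56% each), by edgeR's quasi-likelihood test at an adjusted p under 0.05, and 15 genes had an unadjusted p under 0.05. The median log2 fold change over all 61 genes was -0.01 and the median size without regard to sign was 0.06. Cav2 was the only tested gene whose estimate lay beyond 1.25-fold in either direction. For 53 of the 61 genes the whole 95% confidence interval, not adjusted for the number of genes, lay within 1.25-fold. In these bulk libraries, a change in the share of a cell type and a change of RNA per cell cannot be told apart.

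**Figure D1:**
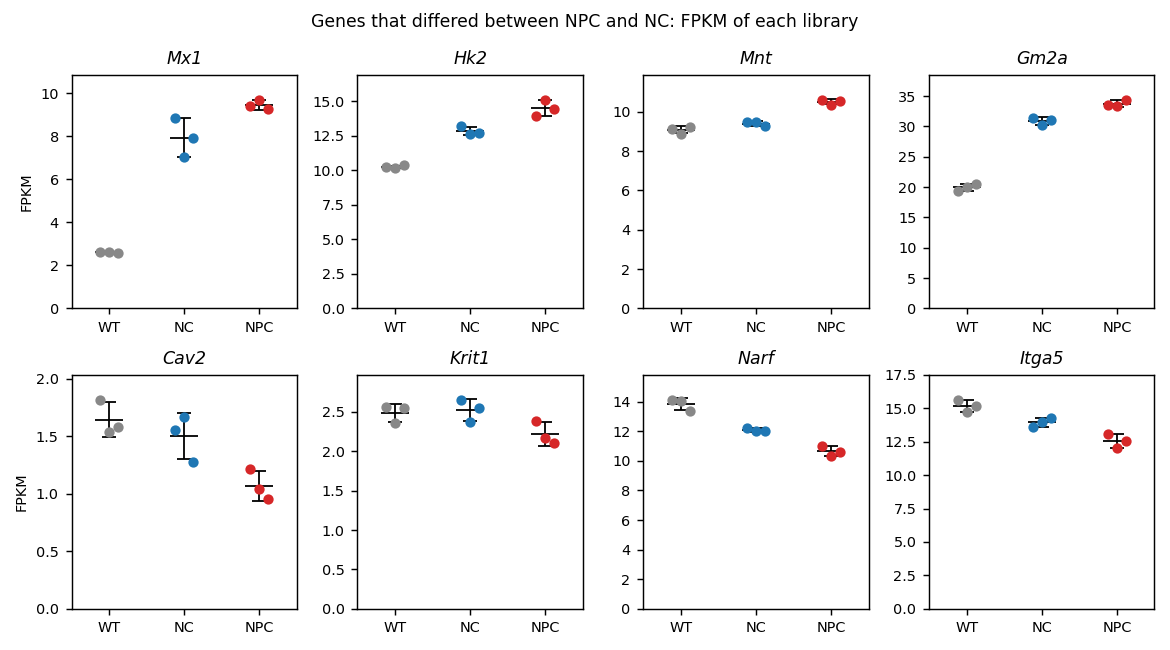
FPKM of each library in WT, NC and NPC for the 8 genes that differed between NPC and NC, each panel on its own axis starting at 0. Points are the 3 libraries of a group, and black lines are the mean and SD. The NPC points lie apart from the NC points in every panel but that of Krit1, where NPC replicate 1 (2.39 FPKM) lies just above NC replicate 2 (2.37 FPKM).

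On GRCm39, to which all gene positions here refer, Hk2 (chromosome 6 from 82702006 to 82751435, minus strand) encodes hexokinase 2, which traps glucose in the cell as glucose 6-phosphate at the entry of glycolysis. Its level was 13.2, 12.6 and 12.7 FPKM in NC replicates 1 to 3, and 13.9, 15.1 and 14.5 FPKM in NPC replicates 1 to 3. Every NPC library was above every NC library, and all 6 were above WT, at 10.2 to 10.3 FPKM. NPC against NC gave a log2 fold change of 0.17 ± 0.04 (SE; 95% confidence interval 0.09 to 0.26; edgeR adjusted p = 0.00801). It was 0.33 ± 0.04 for NC against WT in the same fit. Hk2 passed in each of the 23 alternative analyses, with log2 fold changes from 0.14 to 0.21. It was the 1 tested gene of the glycolysis list, which holds 13 genes, and it was higher, as were 6.56% of all tested genes.

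Mx1 (chromosome 16 from 97248235 to 97264107, minus strand) encodes a dynamin-like GTPase that type I and type III interferons induce and that blocks influenza and related viruses. NC replicates 1 to 3 had 8.84, 7.05 and 7.91 FPKM, the widest relative spread in NC among the 4 genes that rose, and NPC replicates had 9.40, 9.70 and 9.27 FPKM. The groups did not overlap, and NC replicate 1 lay close to the NPC libraries. All WT libraries were near 2.6 FPKM (2.60 ± 0.0213, SD, n = 3). In the comparison of NPC with NC, the log2 fold change was 0.25 ± 0.07 (0.11 to 0.39; edgeR adjusted p = 0.0144). Without NC replicate 2 it was 0.18 with an edgeR adjusted p of 0.142, and the call was also lost without NPC replicate 2 (0.0727) and with NC replicates 2 and 3 averaged (0.0685). The handling of reads shared with the similar gene Mx2 is not stated, which leaves this level uncertain to that extent.

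The other interferon-inducible genes in the table did not pass. Slfn4, a Schlafen gene of myeloid cells, had 41.6, 38.3 and 40.2 FPKM in NC and 42.99, 42.81 and 38.37 FPKM in NPC, with overlapping groups. The difference was 0.05 ± 0.04 on the log2 scale (SE). Trim25 encodes the ubiquitin ligase that activates the viral RNA sensor RIG-I. It had a log2 fold change of -0.09 ± 0.04, with NPC replicate 1 at the NC level (25.4 against 25.3 to 25.9 FPKM) and NPC replicates 2 and 3 lower, at 23.7 and 22.9 FPKM. It passed as lower only when NPC replicate 1 was left out (edgeR adjusted p = 0.00936). Of the 3 tested members of this list 1 was higher and 0 were lower, beside 6.56% of all tested genes in each direction. The median log2 fold change was 0.05 against -0.01 over all tested genes.

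Gm2a (chromosome 11 from 54988941 to 55003855, plus strand) encodes the GM2 activator, a lysosomal protein that lifts the ganglioside GM2 out of membranes so that hexosaminidase A can cut it. NC replicates 1 to 3 had 31.5, 30.2 and 31.0 FPKM and NPC replicates had 33.5, 33.4 and 34.4 FPKM, so the groups were close but separate. WT was at 20.0 ± 0.529 FPKM. Between NC and NPC the log2 fold change was 0.13 ± 0.04 (0.05 to 0.20; edgeR adjusted p = 0.0144), the smallest of the 8. The edgeR adjusted p was 0.142 without NC replicate 2, 0.0587 without NC replicate 3, and 0.0685 both without NPC replicate 3 and with NC replicates 2 and 3 averaged. Scpep1, which encodes a lysosomal serine carboxypeptidase, and Tfe3, a transcription factor that drives lysosomal genes, had log2 fold changes of -0.03 ± 0.06 and -0.08 ± 0.05 and did not pass. The value of Scpep1 was positive under TMM factors (0.01), under median of ratios scaling and without NPC replicate 2. Of the 3 tested lysosomal genes 1 was higher and 0 were lower, beside 6.56% of all tested genes in each direction. Their median log2 fold change was -0.03.

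Mnt (chromosome 11 from 74721746 to 74736551, plus strand) encodes a basic helix-loop-helix protein that pairs with Max, binds the E-box CACGTG and represses genes that Myc activates. Its NC libraries were tightly grouped, at 9.48, 9.47 and 9.25 FPKM, and so were its NPC libraries, at 10.6, 10.4 and 10.5 FPKM. The groups were separated by more than the spread of either, while WT lay at 8.88 to 9.25 FPKM. NPC exceeded NC by a log2 fold change of 0.16 ± 0.05 (0.06 to 0.26; edgeR adjusted p = 0.0144), and that of NC against WT was 0.05 ± 0.05 and did not pass. The edgeR adjusted p was 0.113 without NC replicate 3, 0.065 without NC replicate 2, and 0.0685 both without NPC replicate 3 and with NC replicates 2 and 3 averaged. Of the other transcription factor genes tested, Klf6, a zinc-finger factor of the immediate-early response, had a log2 fold change of -0.01 ± 0.04, with NC at 51.4 to 53.2 and NPC at 49.2 to 54.0 FPKM. Its sign turned positive under TMM factors and median of ratios scaling. Of the 3 tested transcription factor genes, Mnt, Klf6 and Tfe3, 1 was higher and 0 were lower, with a median of -0.01. Over all tested genes 6.56% passed in each direction.

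The promoter of Mnt holds the E-box that the Mnt protein itself recognises, and it is shown because Mnt was the only changed gene with this motif. The 250 bases before the start site are given 5′ to 3′ on the plus strand from RefSeq (GRCm38.p6, chr11:74830674-74830923), with the E-box in capitals.
Mnt promoter: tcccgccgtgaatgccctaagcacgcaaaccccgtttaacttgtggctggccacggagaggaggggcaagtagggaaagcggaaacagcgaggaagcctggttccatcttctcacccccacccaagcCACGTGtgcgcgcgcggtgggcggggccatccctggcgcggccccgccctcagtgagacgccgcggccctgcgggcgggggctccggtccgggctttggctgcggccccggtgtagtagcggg
Promoters were found for 7 of the 8 changed genes, and the motif CACGTG, which reads the same on both strands, was in 1 of their 8 promoters. It was in 11 of the 62 promoters found for tested genes (17.7%) and in 6.02% of all 32851 mouse promoters in the reference table. The core of the interferon-stimulated response element, taken as GAAA repeated after a gap of 2 bases on either strand, was in 0 of the 8 promoters of changed genes, in 4 of the 62 of tested genes (6.45%) and in 2.98% of all promoters. The promoter of Mx1 was not among those searched.

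Narf (chromosome 11 from 121128079 to 121146682, plus strand) encodes a nuclear protein that binds the farnesylated tail of prelamin A, the precursor of a nuclear lamina protein. NC replicates 1 to 3 had 12.22, 11.99 and 12.03 FPKM, and NPC replicates had 11.04, 10.33 and 10.60 FPKM. The NC libraries lay close together, all NPC libraries lay below them, and WT lay above both at 13.9 ± 0.413 FPKM. On the log2 scale NPC differed from NC by -0.18 ± 0.04 (-0.27 to -0.09; edgeR adjusted p = 0.00801), beside -0.20 ± 0.04 for NC against WT. Narf passed in all 23 alternatives, with log2 fold changes from -0.21 to -0.14.

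Itga5 (chromosome 15 from 103252713 to 103275190, minus strand) encodes the integrin alpha 5 chain, which pairs with the beta 1 chain to form the main fibronectin receptor. NC replicates 1 to 3 had 13.6, 14.0 and 14.3 FPKM and NPC replicates had 13.1, 12.1 and 12.6 FPKM. The groups did not overlap, NPC replicate 1 came nearest to NC, and WT lay higher at 14.7 to 15.6 FPKM. NPC relative to NC had a log2 fold change of -0.15 ± 0.04 (-0.24 to -0.06; edgeR adjusted p = 0.0144). The call was lost without NC replicate 2 (edgeR adjusted p = 0.065), NC replicate 3 (0.113), NPC replicate 2 (0.0808) or NPC replicate 3 (0.0541), and with NC replicates 2 and 3 averaged (0.0685).

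The beta chain genes of leukocyte integrins did not pass. Itgb2 encodes CD18, the shared beta chain of the integrins by which white cells stop on and cross vessel walls. It had 113.9, 107.5 and 108.8 FPKM in NC and 116.6, 114.2 and 114.6 FPKM in NPC, so the groups did not overlap. NPC and NC differed by 0.06 ± 0.03 on the log2 scale (-0.01 to 0.14; edgeR adjusted p = 0.246). It passed as higher under TMM factors (0.10, edgeR adjusted p = 0.0451) and median of ratios scaling (0.10, 0.0393). Itgb2l, a close relative of Itgb2 found in maturing neutrophils, had 47.9, 43.4 and 44.5 FPKM in NC and 46.9, 49.0 and 47.5 FPKM in NPC. NC replicate 1 overlapped the NPC range, the log2 fold change was 0.08 ± 0.04, and the gene passed only without NC replicate 1 (edgeR adjusted p = 0.034). It is not stated how reads that match both genes were assigned. Among the 3 tested genes of the adhesion list, 1 was lower and 0 were higher, with a median log2 fold change of 0.06. The share over all tested genes was 6.56% in each direction.

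Cav2 and Krit1, both low in FPKM, fell in NPC. Only Cav2 was also low in counts, at 263 to 459 in the NC and NPC libraries, against 3782 to 5117 for Krit1. Cav2 (chromosome 6 from 17281184 to 17289114, plus strand) encodes caveolin 2, which joins caveolin 1 in the coat of caveolae, the small membrane pits that flatten when a cell is stretched. NC replicates 1 to 3 had 1.56, 1.67 and 1.28 FPKM and NPC replicates had 1.21, 1.04 and 0.954 FPKM. The gap between NC replicate 3 and NPC replicate 1 was small next to the spread within NC. This was a log2 fold change of -0.48 ± 0.14 (-0.77 to -0.19; edgeR adjusted p = 0.0152), with WT at 1.64 ± 0.151 FPKM. Cav2 did not pass without NC replicate 2 (edgeR adjusted p = 0.142), NPC replicate 2 (0.0816) or NPC replicate 3 (0.0719).

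Krit1 (chromosome 5 from 3853184 to 3894303, plus strand) encodes the scaffold of the cerebral cavernous malformation complex, which restrains beta 1 integrin activation and keeps endothelial junctions closed. NC replicates 1 to 3 had 2.65, 2.37 and 2.55 FPKM, and NPC replicates had 2.39, 2.17 and 2.0999 FPKM. The groups overlapped at NC replicate 2 and NPC replicate 1, and WT was at 2.36 to 2.56 FPKM. NPC and NC differed by a log2 fold change of -0.18 ± 0.05 (-0.29 to -0.08; edgeR adjusted p = 0.0144). The call was lost in limma at either pseudocount (limma adjusted p = 0.0993 and 0.09), and without NC replicate 1 (0.085), NC replicate 3 (0.0507), NPC replicate 2 (0.0808) or NPC replicate 3 (0.0685).

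Ccm2, which encodes the partner of Krit1 in the same complex, had 15.4, 15.7 and 15.2 FPKM in NC and 15.8, 13.6 and 15.5 FPKM in NPC. Only NPC replicate 2 was low, and the log2 fold change of -0.04 ± 0.05 did not pass. Ccm2 was chosen after its values were seen. Septin1, a filament-forming GTPase gene of blood cells, and Myo18a, an unconventional myosin gene, had log2 fold changes of 0.04 ± 0.04 and -0.03 ± 0.04. Neither passed, and that of Myo18a was above 0 under TMM factors. Of the 4 tested genes in the list of caveolae, junctions, septins and myosins, 2 were lower and 0 higher. Over all tested genes 6.56% passed in each direction. The median log2 fold change of the list was -0.11 against -0.01 over all tested genes. That list was drawn up with earlier results of these data known.

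**Figure D2:**
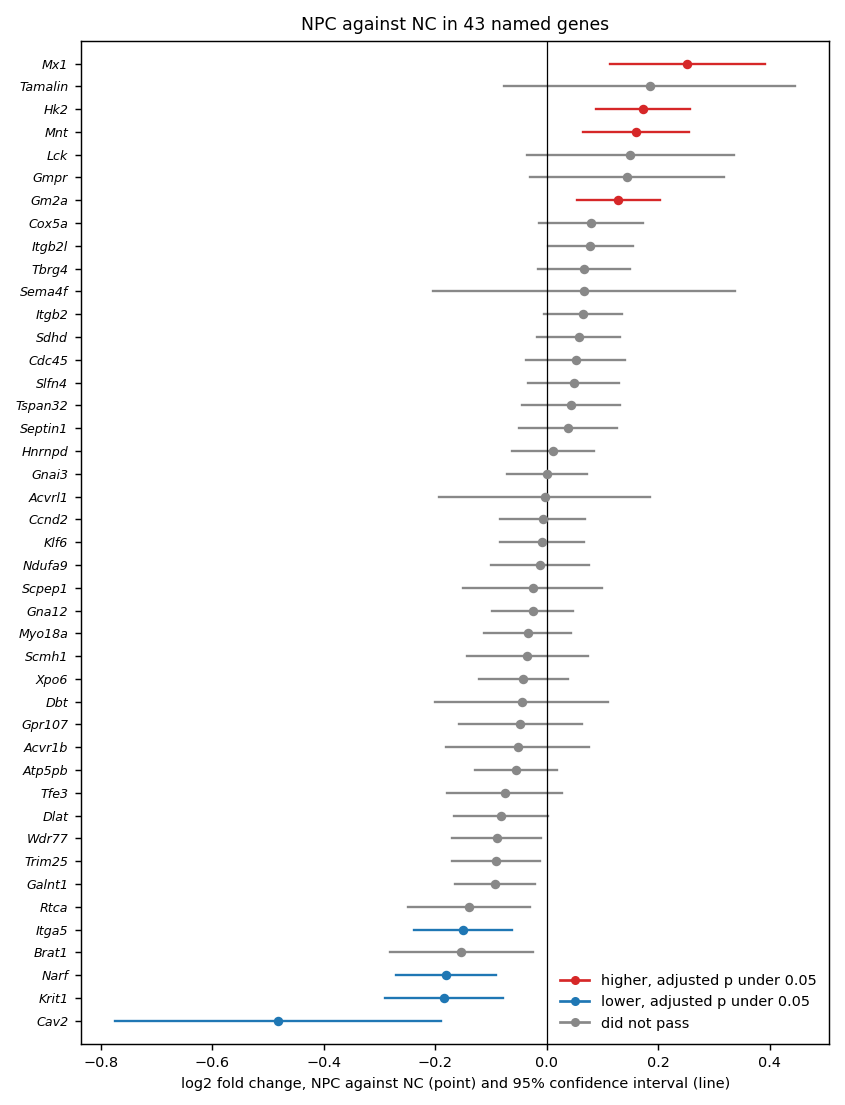
Log2 fold change of NPC against NC (x axis) with its 95% confidence interval for the 43 genes taken by the naming rule (y axis), all of them tested. Red marks the 4 genes that were higher, blue the 4 that were lower and grey the 35 that did not pass. Cav2 lies farthest from 0, at -0.48, and Tamalin and Sema4f have wide intervals.

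None of the mitochondrial genes passed, and they did not lean to 1 side. Sdhd, an anchor subunit of complex II, had 98.3, 98.4 and 96.1 FPKM in NC and 103, 98.5 and 104 FPKM in NPC. NPC replicate 2 was almost level with NC, and the log2 fold change was 0.06 ± 0.04. It passed under TMM factors (0.10, edgeR adjusted p = 0.0465). Cox5a of complex IV and Tbrg4, which processes mitochondrial RNA, had log2 fold changes of 0.08 ± 0.05 and 0.07 ± 0.04. Dlat, the E2 component of pyruvate dehydrogenase, lay lower in NPC without overlap, at 14.1, 13.2 and 13.6 FPKM against 14.3, 14.8 and 14.1 FPKM. That is a log2 fold change of -0.08 ± 0.04 (-0.17 to 0.00; edgeR adjusted p = 0.215). Dbt, the E2 component of the branched-chain ketoacid dehydrogenase, had -0.05 ± 0.08, and Ndufa9 of complex I had -0.01 ± 0.04, positive under TMM factors and median of ratios scaling. Of the 6 tested members of the list, 0 were higher and 0 lower in edgeR, beside 13.1% of all tested genes in either direction. Among these members 0 had an unadjusted p under 0.05, 0 passed in DESeq2, and the median log2 fold change was 0.02. Atp5pb, a stalk subunit of ATP synthase outside the list, had 53.8, 54.4 and 53.8 FPKM in NC and 53.5, 49.8 and 52.6 FPKM in NPC. The log2 fold change of -0.05 ± 0.04 did not pass.

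**Figure D3:**
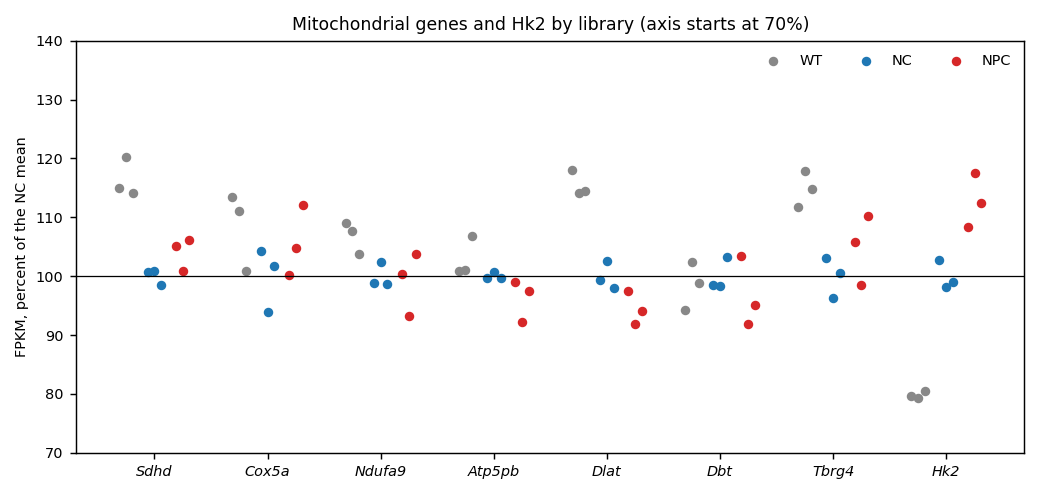
FPKM of each library as a percent of the NC mean (y axis, starting at 70%) for 7 mitochondrial genes and Hk2, in WT (grey), NC (blue) and NPC (red). Each point is 1 library. For the mitochondrial genes the NPC means lie on either side of NC. The edgeR estimates, which are not plotted, run from 5.52% lower for Dlat to 5.67% higher for Cox5a. The libraries do not overlap for Sdhd (higher), Dlat and Atp5pb (lower), while the 3 NPC points of Hk2 lie above all NC points.

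Genes of particular blood cell types gave no call. Lck, the kinase of the T-cell receptor, had 4.84, 4.41 and 4.91 FPKM in NC and 4.91, 4.82 and 6.00 FPKM in NPC. NPC replicate 3 alone stood out, and the log2 fold change was 0.15 ± 0.09 (-0.04 to 0.34; edgeR adjusted p = 0.307). Gmpr, a GMP reductase gene prominent in erythroid cells, had 5.16, 4.88 and 5.15 FPKM in NC and 5.39, 5.44 and 5.97 FPKM in NPC. The groups did not overlap, and the log2 fold change was 0.14 ± 0.09 (edgeR adjusted p = 0.304). Tspan32, a tetraspanin gene of blood cells in the imprinted region of distal chromosome 7, had a log2 fold change of 0.04 ± 0.04. Acvrl1, an endothelial receptor gene of the activin and BMP family, had -0.0034 ± 0.09, with either sign among the alternatives. In all, 0 of 1 tested gene passed in each of the lists for T and NK, neutrophil (Itgb2l), megakaryocyte (Tspan32) and erythroid cells, for stroma and endothelium and for the imprinted region, and 0 of 2 (Itgb2 and Slfn4) in that for monocytes. DESeq2 called 0 in these lists too, and Itgb2l was the 1 gene with an unadjusted p under 0.05. Over all tested genes 13.1% passed in edgeR. The lists for stem and progenitor, B and mast cells had 0 tested genes. Most markers of these cell types were not analysed here, so cell composition could not be compared.

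Signalling genes did not pass either. The G-protein alpha subunit genes Gnai3 and Gna12 had log2 fold changes of 0.00 ± 0.04 and -0.03 ± 0.04, and their intervals (-0.07 to 0.07 and -0.10 to 0.05) were among the narrower ones. Gna12 was above 0 under TMM factors and median of ratios scaling. Gpr107, a Golgi membrane protein gene, had -0.05 ± 0.05. Tamalin encodes a scaffold for metabotropic glutamate receptors and trafficking proteins. It had 3.87, 2.87 and 2.80 FPKM in NC and 3.40, 4.03 and 3.44 FPKM in NPC, where NC replicate 1 overlapped the NPC range. The log2 fold change was 0.18 ± 0.13 (-0.08 to 0.45; edgeR adjusted p = 0.355), close to that of Hk2 but with a much larger SE. Acvr1b, a type I activin receptor gene, had -0.05 ± 0.06 and Sema4f, a semaphorin gene, 0.07 ± 0.13. In edgeR 0 of the 4 tested G-protein genes and 0 of the 3 tested Wnt, activin and growth factor genes passed. Their medians were -0.01 and -0.0034, and 0 of them passed at an unadjusted p under 0.05 or in DESeq2. Over all tested genes 13.1% passed in edgeR.

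Of the 7 tested genes for replication, cell cycle and RNA processing, 1 was lower and 0 were higher, with a median of -0.04. The share over all tested genes was 6.56% in each direction. The lower gene was Narf, which stands in this list although its known partner is prelamin A. Cdc45, part of the replicative helicase, had 25.3, 23.7 and 24.6 FPKM in NC and 25.1, 24.5 and 26.7 FPKM in NPC, with a log2 fold change of 0.05 ± 0.04. Ccnd2, the cyclin D2 gene, had 12.1 to 12.5 FPKM in NC and 12.1 to 12.4 FPKM in NPC, and its log2 fold change of -0.01 ± 0.04 was above 0 under TMM factors and median of ratios scaling. Hnrnpd, an RNA-binding protein gene, had 0.01 ± 0.04 and Xpo6, the exportin of actin, -0.04 ± 0.04. Rtca encodes an enzyme that closes RNA ends into cyclic phosphates. It had 17.8, 17.4 and 18.2 FPKM in NC and 16.6, 16.1 and 15.8 FPKM in NPC without overlap. The resulting log2 fold change was -0.14 ± 0.05 (-0.25 to -0.03; edgeR adjusted p = 0.084), and it passed in DESeq2 (DESeq2 adjusted p = 0.0333), in limma at either pseudocount (limma adjusted p = 0.0298 and 0.0361), with the table's summed counts as library size and without NPC replicate 1. Brat1, a regulator of the DNA damage kinase ATM, had 4.51, 4.39 and 4.17 FPKM in NC and 4.05, 3.81 and 3.90 FPKM in NPC. Its log2 fold change was -0.15 ± 0.06 (edgeR adjusted p = 0.104).

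Counting libraries without a model, NC and NPC did not overlap in FPKM for 16 of the 61 genes (26.2%), 7 higher and 9 lower in NPC. Of the 8 genes that passed the test, 7 were among them, all but Krit1. The 9 that did not pass were Sdhd, Gmpr, Itgb2, Brat1, Dlat, Rtca and Atp5pb, described above, and Galnt1 and Wdr77. Galnt1, which starts mucin-type O-glycans, had 33.3, 32.4 and 32.2 FPKM in NC and 31.7, 29.7 and 30.5 FPKM in NPC. Its log2 fold change was -0.09 ± 0.04 (edgeR adjusted p = 0.084), and it passed in DESeq2 (DESeq2 adjusted p = 0.0333), with summed counts as library size and without NPC replicate 1. Wdr77, a partner of the arginine methyltransferase Prmt5, had 17.4, 17.7 and 17.9 FPKM in NC and 16.7, 16.3 and 16.8 FPKM in NPC, with a log2 fold change of -0.09 ± 0.04. NPC replicate 2, low for many genes, was the lowest of the 6 libraries for Brat1, Dlat, Galnt1, Wdr77 and Atp5pb. The log2 fold changes of these 5 genes were -0.15 to -0.05 as reported, and nearer to 0 with the same sign in 3 alternatives. They were -0.12 to -0.02 under TMM factors, -0.12 to -0.02 under median of ratios scaling and -0.13 to -0.02 without NPC replicate 2. The move towards 0 is built into this choice of genes, because each alternative drops or scales up their lowest library. It is therefore not a test of that library. Narf and Itga5, which passed and were also lowest in NPC replicate 2, moved likewise without it, from -0.18 to -0.16 and from -0.15 to -0.12.

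Among the 38 genes below the expression minimum, Scml2 was the 1 that passed when no minimum was set, with all 99 genes tested. Scml2 encodes a Polycomb protein of the Scm family. Its highest level in the 6 libraries was 1.10 FPKM, and 2 of them reached the minimum of 1, so it fell just outside, whereas Sema4f, with 4 libraries at the minimum, and Cav2, with 5, were just inside. Scml2 had 583, 566 and 565 counts in NC and 508, 386 and 414 counts in NPC, without overlap. The log2 fold change in that fit was -0.37 (edgeR adjusted p = 0.0231). Its relative Scmh1 had a log2 fold change of -0.03 ± 0.05 in the reported fit, just above 0 under TMM factors, and did not pass.

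Other genes of the lists lay too low for a firm statement, and 0 of them passed with no minimum. Rem1, a small GTPase gene, had 37, 37 and 25 counts in NC and 0, 17 and 17 counts in NPC. Cttnbp2, a cortactin-binding protein gene, had 8, 16 and 9 counts in NC and 29, 20 and 27 in NPC without overlap (log2 fold change 1.21, edgeR adjusted p = 0.407). Drp2, a dystrophin-related gene, had 116, 148 and 141 counts in NC and 91, 70 and 118 in NPC. H19, the imprinted non-coding RNA, had 25, 19 and 42 counts in NC and 31, 38 and 44 in NPC. The imprinted transporter gene Slc22a18 and the E-cadherin gene Cdh1 had log2 fold changes of 0.01 and -0.00. Axin2, a target and brake of Wnt signalling, had 93, 82 and 84 counts in NC and 95, 84 and 66 in NPC, and Alox12, the platelet 12-lipoxygenase gene, had 84, 83 and 93 counts in NC and 103, 92 and 77 in NPC. Differences in these genes were not detected, and whether depth was the reason was not tested.

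The number of changed genes depended on which libraries were kept. It was 3 without NC replicate 2 and 3 without NPC replicate 3, and 4 without NC replicate 3, without NPC replicate 2 or with NC replicates 2 and 3 averaged. It was 14 without NPC replicate 1, including all 8 genes reported. Hk2 and Narf were the genes that passed whichever library was left out. Every estimate of the 8 genes kept its sign with each library left out, as the plot of left-out libraries shows. Under TMM factors, which rescaled NPC replicate 2, 10 genes passed, among them all 8.

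**Figure D4:**
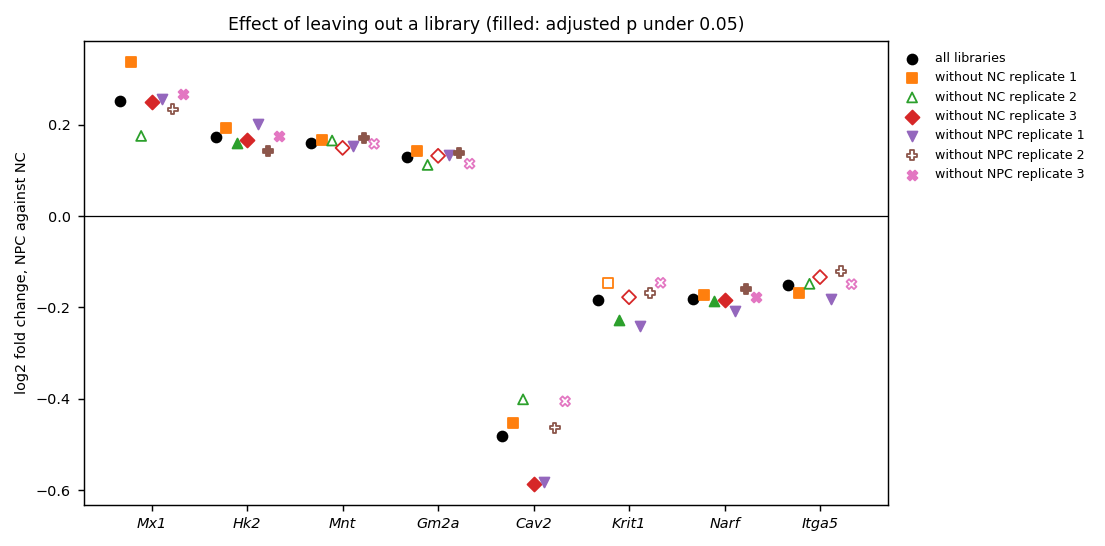
Log2 fold change of NPC against NC (y axis) for the 8 genes that changed (x axis), with all libraries (black circles) and with each NC or NPC library left out (coloured symbols). Filled symbols have an adjusted p under 0.05. All symbols of Hk2 and Narf are filled, each other gene has 2 to 4 open ones, and no symbol crosses 0.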

How the data were processed

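For every gene and library the authors deposited FPKM, and beside it an estimated count that is not normalised. The submitters' processing notes name cutadapt 1.9, HISAT2 2.2.1, StringTie 2.1.6, DESeq2, edgeR and GRCm39 without roles. Annotation release, strand setting and filters are not stated. The deposited counts are whole numbers, but of 891 values 14 equal 4, 1 equals 3, 1 equals 2 and 0 equal 1. From this, 1 fragment was taken as about 4 counts, although values that are not multiples of 4 also occur.

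Library size was the depth implied by count over FPKM in 61 genes whose counts reached 200 in all 9 libraries. All values lay inside 1% of the ratio fitted. This set is not that of the 61 tested genes: it leaves out Sema4f (183 counts in WT replicate 1) and includes Scml2, which was not tested. Its absolute scale used 6 genes with 1 transcript (lengths from GENCODE M21). The counts were tested with the quasi-likelihood test of edgeR 4.0.16 (R 4.3.3), fitting 3 group means to all 9 libraries without a block. P-values were two-sided and adjusted by Benjamini-Hochberg over the 61 tested genes. SEs were derived from fold changes and F statistics. The pipeline was tested on simulated data.

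The naming rule took every gene past the threshold, every tested member of the 21 gene lists, and every gene of at least 5 FPKM whose groups did not overlap. The members and lists were chosen with earlier results of these data known. Promoters came from RefSeq (GRCm38.p6). Alternatives used DESeq2 1.42.0, limma 3.58.1 on log2(FPKM + 1) or log2(FPKM + 0.1), other scalings and filters, a replicate block and left-out libraries. Genes below the expression minimum were named as list members, with their counts. Tables and figures used Python 3.11.15, pandas 2.3.3 and matplotlib 3.10.9.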

Additional observations from a re-analysis of the deposited data

How the results depend on the processing

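Of the 8 calls, 2 (Hk2 and Narf) held in all 23 alternatives and 6 were lost somewhere, while 0 of the 8 changed sign. The count of 8 genes (4 higher, 4 lower) became 3 to 14 with a library left out (1 to 5 higher, 1 to 9 lower), and 4 (1 higher) with NC replicates 2 and 3 averaged. With at least 5 FPKM required, 2 genes were lower, because Cav2 and Krit1 were not tested. The cause was not tested in the other cases. Groups without overlap numbered 19 to 31 instead of 16 with a library left out, which can only remove overlaps. Of the 35 named genes that did not pass, 6 passed in at least 1 alternative and 12 took the other sign in at least 1. The reported estimates of all 12 lay within 0.07 of 0 on the log2 scale, while some alternatives lay farther out. Under TMM factors the genes of other sign were Klf6 (0.0301), Scmh1 (0.0026), Gna12 (0.013), Ccnd2 (0.031), Scpep1 (0.012), Ndufa9 (0.025), Acvrl1 (0.035) and Myo18a (0.0035). Under median of ratios scaling they were Klf6 (0.023), Gna12 (0.0054), Ccnd2 (0.024), Scpep1 (0.0041), Ndufa9 (0.017) and Acvrl1 (0.027). Both scalings were computed on the 61 tested genes alone and moved these genes up together. The median log2 fold change was 0.029 under TMM factors and 0.022 under median of ratios scaling, against -0.0088 as reported. Gnai3 was at -2.7e-05 with summed counts as library size and at -0.012 with NC replicates 2 and 3 averaged, and Acvrl1 was at 3.2e-05 in limma on log2(FPKM + 0.1) and 0.0045 with the average. With a library left out the ranges were -0.016 to 0.028 for Gnai3, -0.036 to 0.0303 for Klf6, -0.072 to 0.0042 for Scmh1, -0.019 to 0.00497 for Ccnd2, -0.061 to 0.027 for Scpep1, -0.047 to 0.0295 for Ndufa9, -0.048 to 0.054 for Acvrl1, -0.11 to 0.0053 for Acvr1b, -0.011 to 0.0303 for Hnrnpd and -0.015 to 0.12 for Sema4f. The replicate block gave 8 genes, in the fit of 9 libraries and in that of 6, and the 8 were those reported. Deviations of same-numbered NC and NPC libraries had correlations of -0.175, -0.298 and 0.286, and those of differently numbered ones -0.205 to 0.360. With 3 libraries per group, these values cannot decide whether the numbers pair the samples. Genes of a few fragments per library and the 3 libraries per group limit what can be detected.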
